A study of Mus musculus with 43 samples.

Results

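Setdb1 sites on the autosomes that lay outside every called domain of repressive histone methylation were described in mouse embryonic fibroblasts (MEFs) of 3 kinds. A site was a Setdb1 peak on chromosomes 1 to 19 whose summit, the base with the most overlapping fragments, fell in no H3K9me2, H3K9me3 or H3K27me3 domain called in the same cells. The sites were thus chosen by measured values, the positions of the summits and of the domains called in the same cells, so this position is described here and not tested. By this rule 871 of 1104 autosomal peaks were sites in female cells, 238 of 337 in Setdb1-depleted cells and 2359 of 3113 in male cells, which made 3468 sites of 4554 peaks in all. Values given in threes follow this order of female, Setdb1-depleted and male.

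The series held 43 ChIP-seq libraries in 18 groups, each group being 1 immunoprecipitation target, or the input chromatin, in 1 kind of cell. All cells were fibroblasts from E13.5 embryos, bred from 129/C57 dams and CAST sires, then transduced with a retrovirus and selected with puromycin. Female cells were Setdb1+/+ Xist-deltaA/+ with a nonsilencing hairpin; the Xist-deltaA allele forces inactivation of the other X chromosome. Setdb1-depleted cells were female, Setdb1+/gt Xist-deltaA/+, carrying 1 gene-trap allele of Setdb1 with the shSetdb1 hairpin; male cells were Setdb1+/+ X/Y with the nonsilencing hairpin. For each of the 5 targets (Setdb1, H3K9me2, H3K9me3, H3K27me3 and H3) 3 female, 2 Setdb1-depleted and 3 male libraries were sequenced, and the authors pooled them before peaks were called; each kind of cell had 1 input library. No replicate error could therefore be had and no difference between the kinds of cells was tested; intervals are exact 95% intervals and cover counting error only. The heading of the Setdb1-depleted peak list calls its immunoprecipitation file gene trap and "Nons" where the labels give shSetdb1, so which hairpin those cells carried is uncertain, and the extraction protocol names NSCs where every other label says MEFs.

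Setdb1 is a histone methyltransferase that places methyl groups on lysine 9 of histone H3. It is best known for silencing retroviral and other repeated sequences, to which it is brought by the co-repressor Trim28 and DNA-binding KRAB zinc finger proteins. One of these, Zfp57, recognises the letters TGCCGC when methylated and keeps methylation on the silent parental allele of imprinting control regions, which are short CpG-rich elements. H3K9me2 and H3K9me3 mark such silenced sequence in broad domains, while H3K27me3 is laid down by Polycomb complexes at other silent genes.

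Sequences of 2 kinds of strong site are shown. Other strong sites, not printed, lay in sequence present in more than 1 copy in the genome but without a long tandem run. Among them were female sites near Gm3318 on chromosome 10 and the strongest Setdb1-depleted site, near Gm44295. The first kind shown was short tandem repeats. Shown are 7 of the sites that were strongest or shared between lists, as the 101 bases around the summit on the forward strand of GRCm38.p6 (mm10), written 5′ to 3′; the first 5 were taken from the male list and the last 2 from the female list. Capitals mark the longest exact tandem run of a unit of up to 6 bases. These sites were picked after their values had been seen.
near 4930517M08Rik (chr17:4626216-4626316): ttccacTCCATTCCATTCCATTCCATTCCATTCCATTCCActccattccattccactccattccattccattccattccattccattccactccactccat
Dpp9 (chr17:56199970-56200070): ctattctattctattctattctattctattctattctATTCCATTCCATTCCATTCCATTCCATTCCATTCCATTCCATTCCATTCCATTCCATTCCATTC
Myo7a (chr7:98060018-98060118): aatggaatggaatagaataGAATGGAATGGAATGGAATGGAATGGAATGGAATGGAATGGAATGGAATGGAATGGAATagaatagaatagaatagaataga
D130079A08Rik (chr14:104336954-104337054): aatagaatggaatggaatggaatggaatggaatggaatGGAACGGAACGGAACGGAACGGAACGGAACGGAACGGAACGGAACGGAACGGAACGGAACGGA
Mov10 (chr3:104798879-104798979): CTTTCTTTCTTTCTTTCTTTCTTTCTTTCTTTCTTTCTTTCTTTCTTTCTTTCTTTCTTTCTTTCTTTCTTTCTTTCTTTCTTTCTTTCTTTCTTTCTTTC
near Gm37210 (chr1:81375576-81375676): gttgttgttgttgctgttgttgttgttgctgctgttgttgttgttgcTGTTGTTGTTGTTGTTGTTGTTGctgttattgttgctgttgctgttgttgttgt
near 5031425F14Rik (chr2:166441848-166441948): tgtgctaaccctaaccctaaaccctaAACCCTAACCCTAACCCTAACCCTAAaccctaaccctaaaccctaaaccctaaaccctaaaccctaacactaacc
The first 4 carried units built on AATGG or a near variant of it, Mov10 a pure CTTT repeat, the site near Gm37210 a TGT repeat and the site near 5031425F14Rik the AACCCT unit that also makes up telomeres.

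The second kind was single-copy, mostly GC-rich sequence, some of it at imprinted genes. Shown are 8 sites of this kind, among them weaker ones such as Airn and Inpp5f and 1 with a GC content of 49.5% (Mest), chosen after their values had been seen, as the 151 bases around the summit, on the same strand and build. All were taken from the male list apart from Airn, which is from the female list. Capitals mark TGCCGC, or GCGGCA where the motif is on the other strand.
Nnat (chr2:157560296-157560446): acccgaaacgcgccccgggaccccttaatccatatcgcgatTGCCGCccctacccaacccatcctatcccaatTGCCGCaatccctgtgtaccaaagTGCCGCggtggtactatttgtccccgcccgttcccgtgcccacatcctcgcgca
Airn (chr17:12742318-12742468): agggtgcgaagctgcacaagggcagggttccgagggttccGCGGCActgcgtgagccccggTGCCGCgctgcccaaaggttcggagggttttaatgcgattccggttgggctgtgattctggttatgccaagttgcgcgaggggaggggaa
Inpp5f (chr7:128687984-128688134): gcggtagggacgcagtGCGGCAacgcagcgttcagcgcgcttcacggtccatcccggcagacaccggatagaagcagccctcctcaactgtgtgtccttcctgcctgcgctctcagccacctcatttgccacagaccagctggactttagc
Mest (chr6:30737521-30737671): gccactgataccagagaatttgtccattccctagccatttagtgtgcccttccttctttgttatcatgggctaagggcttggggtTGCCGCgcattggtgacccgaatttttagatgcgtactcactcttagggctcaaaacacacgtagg
Peg3 (chr7:6729338-6729488): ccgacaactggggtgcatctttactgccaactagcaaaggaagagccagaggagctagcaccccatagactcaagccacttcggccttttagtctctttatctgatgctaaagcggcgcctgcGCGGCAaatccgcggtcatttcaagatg
between Dlk1 and Meg3 (chr12:109528347-109528497): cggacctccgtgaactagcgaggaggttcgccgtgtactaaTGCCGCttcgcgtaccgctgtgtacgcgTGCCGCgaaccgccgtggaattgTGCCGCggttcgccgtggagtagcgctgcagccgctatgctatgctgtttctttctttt
Habp4 (chr13:64169851-64170001): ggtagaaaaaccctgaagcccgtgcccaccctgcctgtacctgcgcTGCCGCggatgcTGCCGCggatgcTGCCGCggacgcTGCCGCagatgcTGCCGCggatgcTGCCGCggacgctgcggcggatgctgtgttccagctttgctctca
Polrmt (chr10:79739296-79739446): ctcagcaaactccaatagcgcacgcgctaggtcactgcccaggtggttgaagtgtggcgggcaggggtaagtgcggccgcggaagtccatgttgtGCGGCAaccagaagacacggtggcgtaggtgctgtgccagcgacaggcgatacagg
The motif occurred 3 times in the windows at Nnat and between Dlk1 and Meg3, 2 times at Airn and 6 times at Habp4. The 6 at Habp4 were successive copies of a longer repeated unit, which the search for units of up to 6 bases did not cover.

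The sites were sparse, short and mostly weak. Outside the domains there were 0.427 sites per Mb in female cells (95% interval 0.399 to 0.456), 0.112 in Setdb1-depleted cells (0.0981 to 0.127) and 1.14 in male cells (1.09 to 1.18). Inside the domains the density of Setdb1 peaks was 0.657, 0.369 and 2.35 per Mb, higher in each kind of cell. The domains covered little of the genome, with 85.2%, 88.8% and 86.6% of autosomal sequence lying outside them, so most peaks were outside (78.9%, 70.6% and 75.8%) although the density there was lower. Sequencing depth differed between the pools: the Setdb1 immunoprecipitations held 57400561, 22386381 and 16482475 tags, of which 18134299, 14405821 and 12320583 were used after duplicates were removed and the larger of each immunoprecipitation and input pair was sampled down. The order of the site numbers did not follow the order of the tags used, and the part of depth and of enrichment quality in those numbers was not tested.

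A site was typically the height of a few fragments. The median pileup, which is the number of overlapping fragments at the summit, was 7, 7 and 6, and the highest was 44, 65 and 196. The median enrichment over the local background was 3.94-fold, 4.01-fold and 3.65-fold. Most sites had the shortest length found in their list, 101, 97 and 98 bp (52.7%, 56.3% and 54.4% of sites), which is the fragment length used by the peak caller, and the longest were 865, 400 and 1045 bp. The authors' lists were made with a p cutoff of 0.001. A q-value under 0.05 was reached by 97 sites in female cells (11.1%, against 12.3% of all autosomal peaks), 55 in Setdb1-depleted cells (23.1%, against 28.2%) and 483 in male cells (20.5%, against 25.4%). These shares lay a little below those of all autosomal peaks, of which the sites are the larger part. Peaks inside H3K9me2 or H3K9me3 domains reached it more often, at 18.8%, 44% and 48.4%. Inside H3K27me3 domains alone the shares were 12.7%, 29.2% and 19.6%.

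Sites lay at about the same distances from repressive domains as regularly spaced points did. The median distance from a summit to the nearest domain was 72.0 kb in female, 111 kb in Setdb1-depleted and 79.6 kb in male cells, and points placed every 5 kb outside the domains gave 72.5, 103 and 77.5 kb. Within 10 kb of a domain were 10.6%, 6.72% and 8.78% of sites and 10.5%, 7.98% and 9.63% of points. Beyond 100 kb were 39.8%, 56.7% and 42.9% of sites and 39.2%, 51.2% and 41.7% of points. No crowding of sites within 10 kb of domain edges was visible in these values. The nearest points lay 2.5 kb from a domain in each kind of cell, so sites and points could not be compared closer to the edge. The farthest sites lay 1081099, 1144346 and 1087482 bp from any domain. At the threshold itself, the nearest sites outside a domain were 77, 1039 and 99 bp from its edge, at Gm47557, Cdkal1 and a male site, and the nearest excluded peaks were 60, 44 and 92 bp inside.

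**Figure D1:**
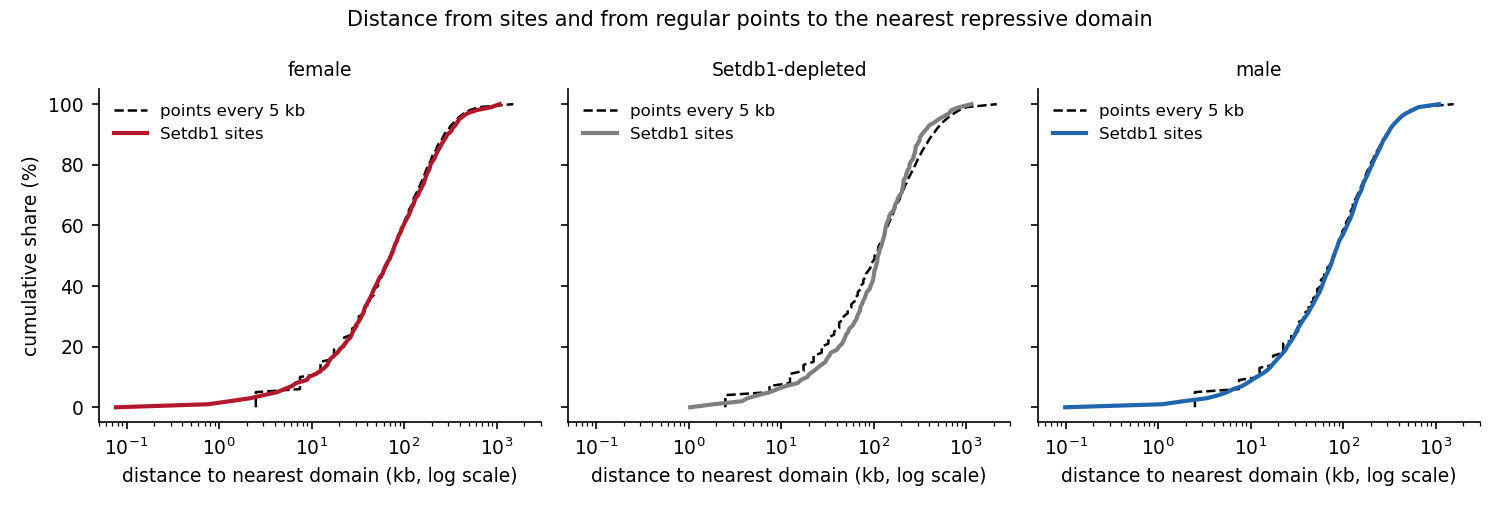
Cumulative share of sites (coloured lines) and of points spaced every 5 kb outside domains (dashed lines) against the distance to the nearest H3K9me2, H3K9me3 or H3K27me3 domain, in kb on a log scale, for the 3 kinds of cells. The lines run close together in female and male cells. In Setdb1-depleted cells 17.2% of sites (interval 12.65 to 22.64%) and 22.63% of points lie 10 to 50 kb from a domain, so the interval just includes the share of points.

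Shares of intergenic and intronic sites were also close to those of the points. About as many sites were intergenic as not (49.0%, 50% and 50.8%, against 50.3%, 50.7% and 50.4% of points) and most others were intronic (46.8%, 45.0% and 43.2%, against 44.6%, 44.2% and 44.5%). A transcription start lay within 1 kb of 42 sites in female cells (4.82%, interval 3.50 to 6.46%), 13 in Setdb1-depleted cells (5.46%, 2.94 to 9.16%) and 122 in male cells (5.17%, 4.31 to 6.14%). The shares over all autosomal Setdb1 peaks were 4.89%, 5.64% and 6.17%, and those of the points 3.64%, 3.62% and 3.68%. Starts of protein-coding genes lay within 1 kb of 2.30%, 2.94% and 2.71% of sites and of 1.46%, 1.44% and 1.48% of points. In male cells the interval lay above the share of points, and in the other cells it included it. Among the strongest sites, those with −log10 p of at least 10, the share near a start was 11 of 70 in male cells (15.7%), 0 of 29 in female cells and 0 of 15 in Setdb1-depleted cells; 0 of 29 allows a share of up to 11.9%.

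Few sites were found in more than 1 list. Of the sites, 40 in female cells (4.59%, interval 3.30 to 6.20%), 30 in Setdb1-depleted cells (12.6%, 8.67 to 17.5%) and 52 in male cells (2.2%, 1.65 to 2.88%) overlapped a Setdb1 peak of another kind of cell by at least 1 bp. The same overlap was found for 5.43%, 14.2% and 2.54% of all autosomal peaks, most of which are the sites. Inside H3K9me2 or H3K9me3 domains it was found for 9.74%, 17.3% and 4.11% of peaks, higher than at the sites in each list. Inside H3K27me3 domains alone, where peaks were few, it was found for 6.33%, 20.8% and 2.06%. With each list cut to its 238 strongest sites, and overlap sought only among the sites so kept, the shares were 13.4%, 11.3% and 16.4%. The male share was then the highest and not the lowest. The cut changed the strength of the sites as well as the length of the lists, and the part of each was not tested. Between pairs of lists, 36 of 871 female sites overlapped a male peak and 13 a Setdb1-depleted peak; 26 of 238 Setdb1-depleted sites overlapped a male peak and 14 a female peak. Merging overlapping sites gave 3408 places, of which 3357 were in 1 list, 43 in 2 lists and 8 in all 3. Some sites lay in a place that was a domain in other cells: 6.20% of female sites lay in a domain called in Setdb1-depleted cells and 7.12% in one called in male cells. In the other directions the shares were between 6.57% and 10.9%. The same share was not computed for the points, so whether it was low for the sites is not known.

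Recurrence between lists was highest among the strongest sites of each list. Of sites with −log10 p of at least 10, 21 of 29 female (72.4%, interval 52.8 to 87.3%), 12 of 15 Setdb1-depleted (80%) and 34 of 70 male sites (48.6%, 36.4 to 60.8%) were found in another list. Below 4, the numbers were 0 of 153, 2 of 35 and 1 of 424. Below 7, where most of each list lay, they were 8 of 797 (1.00%), 11 of 202 (5.45%) and 12 of 2176 (0.551%). The stronger sites were also those made of repeated sequence: the 51 bp around the summit occurred more than once in the reference genome at 75.9%, 60% and 57.1% of sites with −log10 p of at least 10, against 8.50%, 25.7% and 9.91% of those below 4.

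**Figure D2:**
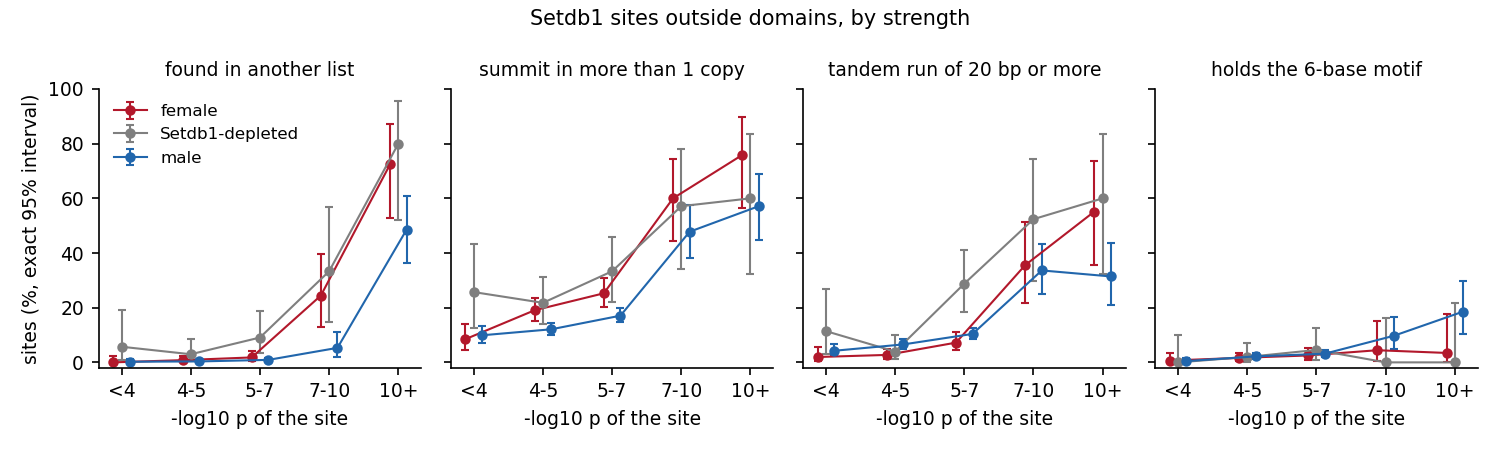
Share of sites, with exact 95% intervals, that overlapped a peak of another list, had a summit sequence present in more than 1 copy, held a tandem run of 20 bp or more, or held TGCCGC, in 5 bins of −log10 p for female (red), Setdb1-depleted (grey) and male (blue) MEFs. Sharing between lists climbs to 72.4%, 80% and 48.6% in the strongest bin, and the share with TGCCGC is highest in the strongest male bin, at 18.6%.

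Repeated sequence was more frequent at the sites than at points outside domains. A tandem run of at least 20 bp lay in the 101 bp around the summit of 65 female (7.46%, interval 5.81 to 9.41%), 47 Setdb1-depleted (19.7%, 14.9 to 25.4%) and 227 male sites (9.62%, 8.46 to 10.9%), and around 3.35%, 3.36% and 3.36% of points. Inside H3K9me2 or H3K9me3 domains the shares of peaks with such a run were 4.55%, 13.3% and 7.86%, lower than at the sites in each list. Inside H3K27me3 domains alone they were higher than at the sites, at 15.2%, 25% and 12.4%. All autosomal peaks together gave 7.61%, 18.7% and 9.48%, close to the sites. Summit sequence present in more than 1 copy was found at 202 (23.2%), 74 (31.1%) and 392 sites (16.6%), against 9.28%, 9.82% and 9.38% of points. By this measure peaks inside an H3K9me2 or H3K9me3 domain were the higher, at 74%, 66.7% and 69.8%. Reads from multi-copy sequence cannot be placed with certainty, and the part of such placement in the height of these sites was not tested.

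The kind of tandem run also differed from that of the points. Runs made of A and G alone, or of T and C on the other strand, lay at 28 female (3.22%), 26 Setdb1-depleted (10.9%) and 115 male sites (4.88%), and at 0.982%, 0.987% and 0.992% of points. Among the tandem runs alone they made up 43.1%, 55.3% and 50.7% at sites and 29.3%, 29.4% and 29.5% at points. The most frequent unit was AAG in female cells (18 sites) and AAAG in Setdb1-depleted (13 sites) and male cells (51 sites). The AATGG unit was rare, with 1, 2 and 5 sites and none of the points, yet the 5 male sites were among the 10 strongest of that list and had a median −log10 p of 109.6.

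The strongest male site lay at chr17:4626159-4626604, between genes and 8712 bp upstream of the nearest start, that of 4930517M08Rik. Its pileup was 173 and its enrichment 106-fold (−log10 p of 349), and peaks were also called there in female and Setdb1-depleted cells, where the place was inside a domain. An intron of Ano2, which encodes a calcium-activated chloride channel, held the next (pileup 90, 45.5-fold), and there too the peaks of the other lists were inside domains. In female cells the strongest site was near Gm37210 on chromosome 1 (pileup 44, 22.7-fold), and it was present in Setdb1-depleted cells at a pileup of 13 (7.00-fold) and absent from the male list. In Setdb1-depleted cells it was chr6:103314603-103314721, near Gm44295 (pileup 47, 16.0-fold), which was also in the male list.

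The 8 places outside domains in all 3 lists covered a wide range of strength. An intron of Camk2b, encoding a subunit of a calcium-dependent protein kinase, was enriched 8-fold in female, 7.33-fold in Setdb1-depleted and 45.6-fold in male cells, with pileups of 15, 21 and 74. An intron of Myo7a, an unconventional myosin of hair cells, was enriched 7.33-fold, 10.0-fold and 32.8-fold, with pileups of 21, 19 and 53. An intron of Dpp9, a dipeptidyl peptidase, was enriched 11-fold, 9.33-fold and 25.5-fold, with pileups of 21, 27 and 41.
At these 3 places and at D130079A08Rik (6.06-fold, 5.15-fold and 22.5-fold) the male value was the highest. Mov10, an RNA helicase gene, had 10.4-fold, 4.00-fold and 10.0-fold, so female and male values were alike and the Setdb1-depleted value lower. The other 3 places, at Klhl1 and near Gm16294 and Gm25727, were between 2.27-fold and 6.50-fold in every list. With 1 pooled value per list, none of these differences could be set against a replicate error. Of the 8 places, 6 held a tandem run, among them the AATGG repeats at Myo7a and Dpp9 printed above, and Camk2b and the place near Gm25727 held none.

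**Figure D3:**
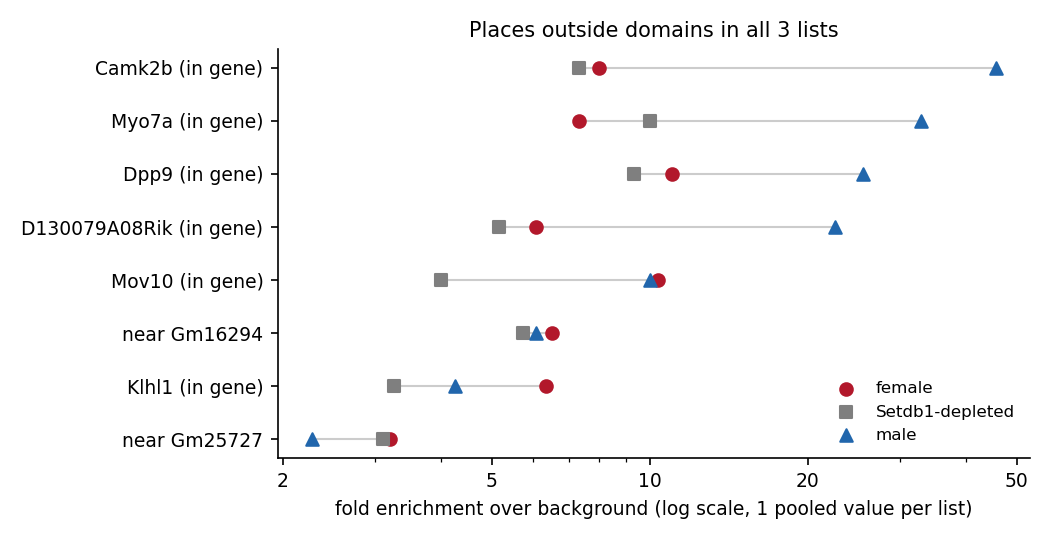
Fold enrichment over the local background (log scale) at the 8 places outside domains in all 3 lists, with 1 pooled value per list for female (red circles), Setdb1-depleted (grey squares) and male (blue triangles) MEFs. The male value lies far to the right at Camk2b, Myo7a, Dpp9 and D130079A08Rik, and the 3 values are close together near Gm16294.

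Of the 51 places found in 2 or 3 lists, 40 (78.4%) held a tandem run or multi-copy sequence, against 740 of the 3357 places in 1 list (22.0%). One stretch of multi-copy sequence, chr10:3109522-3117123 near Gm30674 and Gm3318, gave 10 of the 51 by itself. It held 11 sites in the female list (9 to 27 fragments, 5.05-fold to 14.2-fold) and 11 in the male list (7 to 20 fragments, 4.86-fold to 12.8-fold), and all of these lay in a domain in Setdb1-depleted cells. The remaining 11 shared places were single-copy without a tandem run of a unit of up to 6 bases. Habp4, which is among them, held a repeat of a longer unit, as the printed sequence shows. Of these 11, 8 held TGCCGC and 5 lay in an imprinted gene: Plagl1, Igf2r with Airn, Nnat, Gnas and Inpp5f. The others were in Polrmt, the RNA polymerase of mitochondria, Habp4, Camk2b, Mdga2 and Gm13346 and near Gm25727. TGCCGC lay at 1.81%, 2.37% and 2.83% of all autosomal peaks. A shared place was counted when any of its sites held the motif, so the 2 measures are not alike.

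A larger share of listed imprinted genes than of all protein-coding genes held a site in each list. Genes with a site made up 1.82%, 0.524% and 4.49% of the 20807 autosomal protein-coding genes. Of 30 listed imprinted genes, 4 held a site in female cells (13.3%, interval 3.76 to 30.7%), 2 in Setdb1-depleted cells (6.67%, 0.818 to 22.1%) and 11 in male cells (36.7%, 19.9 to 56.1%). The list was chosen with results of these data known, genes differ in length, and Igf2r and Airn overlap and share 1 site, so these counts are a description. The imprinted list also holds non-coding genes such as Airn and Peg13, so the shares are over unlike sets of genes. With each list cut to its 238 strongest sites the genes numbered 0, 2 and 8. The 12 male sites were single-copy, 9 of them held TGCCGC, and their median −log10 p was 7.10 against 4.24 for all male sites. The 3 female and the 2 Setdb1-depleted sites all held TGCCGC, and every one of them was at a place of the male list too. Their median −log10 p was 5.05 in female and 4.99 in Setdb1-depleted cells, against 4.96 and 4.99 for all sites of those lists.

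At the paternally expressed genes the male values were as follows. Nnat, encoding the membrane protein neuronatin, had a site 293 bp after its start in a non-coding exon (pileup 16, 8.50-fold); in Setdb1-depleted cells this site had a pileup of 7 (4.58-fold), and no site was called in female cells. Plagl1, encoding a zinc finger protein that restrains growth, had an intronic site with a pileup of 15 (9.72-fold) in male cells and 7 (4.00-fold) in female cells, and a weak second male site (pileup 5, 3.65-fold). Peg3, encoding a zinc finger protein, had a site 1018 bp after its start (pileup 8, 5.47-fold) in male cells alone.
Mest, named for its expression in mesoderm, had 2 male sites with pileups of 10 and 6 (5.50-fold and 4.25-fold). Zrsr1, a retrocopy of a splicing factor gene, and the non-coding Peg13 had pileups of 8 each (4.50-fold), and Mkrn3, a ring finger gene, had 6 (4.25-fold). None of these 4 genes held a site in the other lists. Inpp5f, an inositol phosphatase gene with an imprinted transcript, had a site with pileups of 12 in male (4.33-fold) and 7 in female cells (4.04-fold).

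Igf2r, a maternally expressed gene that encodes a receptor that clears Igf2, held its site in the intron where the antisense RNA Airn begins. The site lay 962 bp after the Airn start in male cells (pileup 14, 7.50-fold) and 1082 bp after it in female cells (pileup 7, 4.04-fold). Gnas, a G protein subunit locus with transcripts of either parental origin, had a site 652 bp upstream of the antisense transcript Nespas in male cells (pileup 16, 8.50-fold), at the same place as one with a pileup of 6 in Setdb1-depleted cells (3.50-fold). Every one of the 5 shared imprinted places thus had its highest pileup in the male list. At Inpp5f the enrichment was nearly alike, at 4.33-fold in male and 4.04-fold in female cells. The part of depth and of enrichment quality in these values was not tested. The imprinted sites were not next to the domains: they lay 21.1 to 213 kb, 9.65 to 659 kb and 5.42 to 396 kb away. Setdb1 peaks at Igf2 and Grb10 in male cells were inside a domain and do not count here.

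A place between Dlk1 and Meg3, 2 genes of an imprinted cluster on chromosome 12, was not in the list and was added after its value had been seen. The male site at chr12:109528337-109528519 had a pileup of 14 (9.12-fold), 65.1 kb after the end of Dlk1 and 12.6 kb before the start of Meg3, and was in the male list alone. A second male site of the interval, at chr12:109501655-109501752, was weak (pileup 4, 3.04-fold) and held no TGCCGC. Likewise a male site lay 46 bp upstream of the start of Nap1l5 (8.51-fold), an imprinted gene within Herc3 that the list did not hold.

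**Figure D4:**
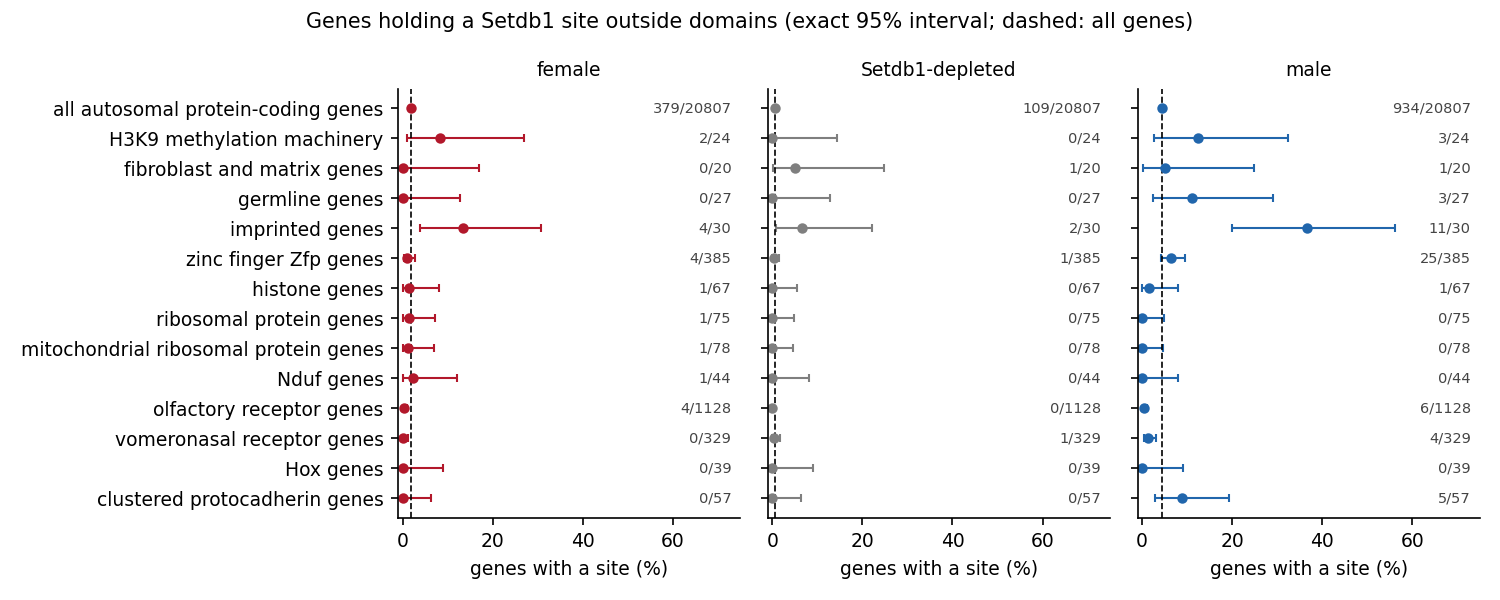
Share of listed genes that held a site outside domains, with exact 95% intervals, in each kind of cell; the dashed line is the share of all 20807 autosomal protein-coding genes and the counts are at the right of each panel. Imprinted genes stand to the right of the dashed line in male cells (11 of 30), and the intervals of most other lists reach the line.

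Counts were small in the other gene groups, and they are to be read against the 1.82%, 0.524% and 4.49% of all genes. Of 385 Zfp genes, the family that holds the KRAB zinc finger proteins, 4, 1 and 25 had a site (1.04%, 0.260% and 6.49%, the male interval being 4.25 to 9.44%), and in each list the interval included the share of all genes. Zfp777, with a pileup of 18 (9.50-fold) in a coding exon, was the strongest of the male Zfp sites. Genes of the H3K9 methylation machinery gave 2, 0 and 3 of 24 (8.33%, 0 and 12.5%), with wide intervals that include the share of all genes in each list: Zfp57 and Mbd1 in female cells, and Atf7ip, a partner of Setdb1, Dnmt3a and Fam208a in male cells, with pileups of 5 or 6. The fibroblast and matrix list gave 0, 1 and 1 of 20, the Setdb1-depleted site lying 203 bp upstream of Acta2, the smooth muscle actin gene (pileup 6, 3.50-fold). Germline genes gave 0, 0 and 3 of 27 (Sycp1, Stag3 and Tdrd9), the male share being 11.1% (2.35 to 29.2%). Olfactory receptor genes gave 4, 0 and 6 of 1128 (0.355%, 0 and 0.532%), below the share of all genes with intervals that ended at 0.905%, 0.327% and 1.15%, vomeronasal receptor genes 0, 1 and 4 of 329, and Hox genes none of 39. Histone genes gave 1, 0 and 1 of 67, while ribosomal protein, mitochondrial ribosomal protein and Nduf genes gave 1 each in female cells and none in the others. The 5 of 57 clustered protocadherin genes in male cells shared a single site.

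Over all sites TGCCGC was about as frequent as over all autosomal peaks. It lay within 150 bases of the summit at 17 female (1.95%), 5 Setdb1-depleted (2.1%) and 73 male sites (3.10%, interval 2.43 to 3.88%), against 1.81%, 2.37% and 2.83% of all autosomal peaks and 1.79% of points in each kind of cell; of 31396 RefSeq promoters in windows about as long, 11.6% held it. The male interval lay above the share of points and included that of all peaks. It rose with strength in male cells, to 13 of 70 sites with −log10 p of at least 10 (18.6%). The search for this motif was added after the imprinted genes had been seen. Sites with a GC content of at least 50%, a single copy and −log10 p of at least 8 numbered 4, 4 and 19, and 2, 0 and 14 of them held the motif. The share was not computed for points or for all peaks of like GC content, so these counts have no base rate beside them.
Several of these GC-rich sites were at genes not known as imprinted. An intron of Habp4, which encodes a hyaluronan-binding protein, had pileups of 24 in female (11.8-fold) and 45 in male cells (27.9-fold). A coding exon of Polrmt had 11 (6.06-fold) and 20 (12.5-fold). Kmt2a, encoding an H3K4 methyltransferase, had a male site 151 bp upstream of its start (7.90-fold).

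**Figure D5:**
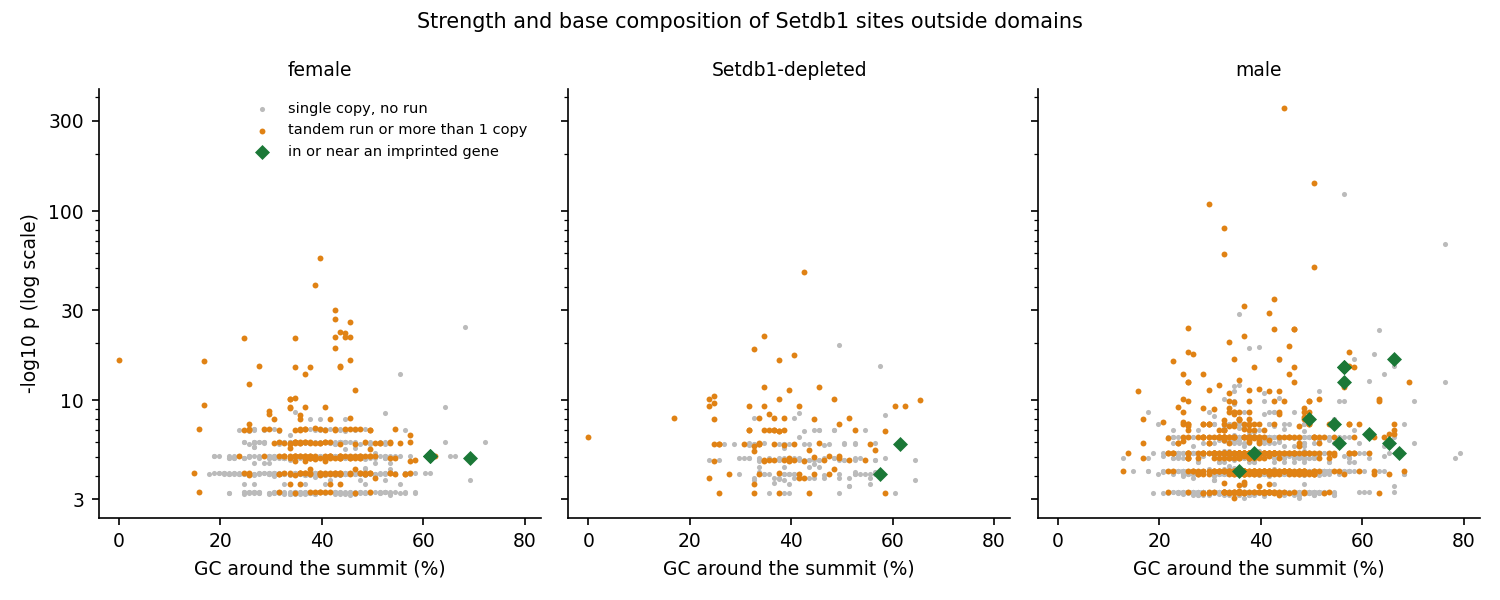
Strength (−log10 p, log scale) of each site against the GC content of the 101 bp around its summit, in each kind of cell; grey points are single-copy without a tandem run, orange points hold a run or multi-copy sequence and green diamonds lie in or near an imprinted gene. Most of the strong points below 50% GC are orange, and the male imprinted genes reach a −log10 p of 16.6 on the GC-rich side.

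Of 13 motifs searched in each list, which gave 39 shares, 6 had an interval that did not include the share of points. The AP-1 motif TGANTCA, searched on both strands within 150 bases of the summit, lay at 8.96%, 9.66% and 9.88% of sites and 9.04%, 9.01% and 9.03% of points. The Sp motif GGGCGG lay at 1.61%, 4.2% and 2.29% of sites and 2.74%, 2.75% and 2.77% of points. The Ctcf core AGGNGGCAG lay at 1.38%, 2.52% and 1.87% of sites and 2.08%, 2.08% and 2.1% of points. The 6 were TATAAA in Setdb1-depleted cells (18.9%, interval 14.1 to 24.5%, against 27.6%), the telomere repeat TTAGGGTTA in the same cells (1.26%, 0.261 to 3.64%, against 0.211%), GGGCGG in female cells (0.882 to 2.68%), the Ets motif CCGGAAG in female cells (0.230%, 0.0278 to 0.827%, against 0.836%), CCAAT in male cells (35.7%, 33.8 to 37.7%, against 40.2%) and the Yy1 motif AANATGGCG in male cells (1.06%, 0.687 to 1.56%, against 0.419%). Over all autosomal peaks of the same lists the 6 shares were 19.9%, 1.78%, 1.63%, 0.181%, 36.3% and 3.21%, in the same order. The Yy1 motif was thus less frequent at the male sites than over all male peaks. The telomere repeat lay at 3 of 238 Setdb1-depleted sites and at 6 of all 337 peaks, and the interval of the sites included the share of all peaks. Inside H3K9me2 or H3K9me3 domains the Yy1 motif lay at 13.2% of male peaks. Of the RefSeq promoters 13.6% held TATAAA and 2.35% the Yy1 motif.

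Sites lay mostly alone. Groups of sites spaced by at most 10 kb numbered 5 in female cells (24 sites, 2.8%), 42 in male cells (109 sites, 4.6%) and 0 in Setdb1-depleted cells. The same share was not computed for all autosomal peaks or for points, so whether it was low for the sites is not known. Apart from the chromosome 10 stretch, a female group of 7 single-copy sites lay at chr9:123928971-123935934 near Ccr1, a chemokine receptor gene (pileups of 6 to 9, 3.50-fold to 5.00-fold), and none of the 7 places was in a domain in any of the cells. Male groups at Gm21738 on chromosome 14 (10 sites) and at Gm10801 on chromosome 2 (7 sites) had the highest pileups of the list, 122 to 196 and 195 to 196, but only 1.30-fold to 2.51-fold and 1.26-fold to 1.72-fold enrichment, since the background was high there as well. By chromosome the density ran from 0.283 to 0.596 sites per Mb in female, 0.0694 to 0.153 in Setdb1-depleted and 0.993 to 1.43 in male cells.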

How the data were processed

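Chromatin was precipitated with antibodies to Setdb1, H3K9me2, H3K9me3, H3K27me3 and H3 and sequenced. The authors aligned reads with Bowtie2 to mm10 in which bases differing between strains were masked, and pooled libraries per group; the labels also name CASAVA 1.4. Setdb1 peaks came from MACS2 2.1.0.20140616 with input as control and down-sampling, and the deposited columns hold pileup (a signal), −log10 p, −log10 q and fold enrichment. Domains were called by the authors in Seqmonk with H3 as control, and only their positions were used. The files' headings state that q-values were not calculated although the column is filled.

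Sites were intersected with domains, with GENCODE gene annotation, with the NCBI RefSeq sequence of GRCm38.p6, and with points every 5 kb. Python 3.11.15, numpy 2.4.6, pandas 2.3.3 and scipy 1.17.1 were used; counting was checked on simulated data. Sites were named where they were the 10 strongest, in all lists, widest, highest, farthest, nearest the threshold or at listed genes; TGCCGC, the GC-rich set, Nap1l5, the Dlk1 to Meg3 interval, the Ccr1 group and the printed sequences were added after values had been seen. The members and lists were chosen with earlier results of these data known. Pooled lists gave no replicates and hence no test.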

Additional observations from a re-analysis of the deposited data

How the results depend on the processing

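No paired analysis was possible because the authors pooled the libraries of each group into 1 list, and for the same reason no replicate could be left out. Of 87 values recomputed under an alternative, 56 stayed within their counting interval or within 1.5 times the reported count. With −log10 p of at least 5 the sites numbered 351, 102 and 1067, the share found in another list was 10.3%, 24.5% and 3.94%, the female median distance was 63.6 kb, and 1 imprinted gene held a site in Setdb1-depleted cells. With summits in no domain of any cells, the share in another list was 2.98% in female and 1.48% in male cells, and 1 imprinted gene was left in Setdb1-depleted cells. With single-copy summits alone that share was 1.79%, 6.71% and 0.712%. With each list cut to its 238 strongest sites it was 13.4% in female and 16.4% in male cells, the male share near a start was 10.1%, the median distances were 63.1 and 74.9 kb in female and male cells, and 0 imprinted genes held a site in female cells. A window of 5 kb put 18.4%, 19.3% and 19.2% of sites near a start, and protein-coding starts alone gave 2.30% in female and 2.71% in male cells. The median distance to an H3K9 methylated domain alone was 167, 311 and 173 kb. With 36 bp around the summit 27.1%, 38.7% and 20.6% were multi-copy. The order of the lists by share found in another list changed only when they were cut to equal numbers, and the imprinted alternatives were added after the data had been seen. The smallest pileups called were 5, 5 and 4 fragments, and how far depth set the number of weak sites was not tested.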
